A study of Mus musculus with 6 samples.

Results

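The genes studied here, which move ions and water into the cerebrospinal fluid, were followed across the cell types of the neonatal mouse brain after an intraventricular injection of lysophosphatidic acid (LPA). They were the water channels Aqp1 and Aqp4, the cotransporter Slc12a2, the bicarbonate transporters Slc4a5 and Slc4a10, the potassium channel Kcnj13, the chloride channel protein Clic6 and the kinase Stk39. These 8 of the 32285 genes in the count tables were taken by symbol for their known role in making the fluid.

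The libraries came from single-nucleus RNA sequencing of brains of C57BL/6 S-56 mice, with 3 libraries from LPA-injected and 3 from vehicle-injected animals. LPA, a signaling lipid carried in blood, was given in a carrier of bovine serum albumin in saline to model post-hemorrhagic hydrocephalus, and vehicle was that carrier alone. Both groups received 5 µl into the right lateral ventricle at postnatal day 7 (P7) and were collected at P15, and the labels do not give the LPA concentration used for these libraries. Brains without olfactory bulbs and cerebellum were sorted for nuclei negative for the neuronal protein NeuN. Each library carries its own replicate label. No label says that it came from a separate animal, but the study describes the points in its plot of cell type shares as individual mice. The p-values measure the spread between these libraries.

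The choroid plexus is a folded epithelium in the ventricles that secretes most of the cerebrospinal fluid. Sodium, chloride and bicarbonate cross it through transporters on its blood side and its ventricle side, driven by the sodium pump, and water follows through aquaporins. Ciliated ependymal cells line the ventricle walls, and astrocytes hold water channels on the end feet that surround vessels.

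The files held 63383 barcodes, of which 57443 passed the filters, and 48852970 to 65688644 unique molecular identifiers (UMIs) per library. Between 3.18% and 4.65% of a library's barcodes also occurred in another library. Clusters were named from marker genes, none of them a member, which gave 938 choroid plexus nuclei (107 to 206 per library), 888 mature ependymal nuclei (78 to 189), 10334 astrocytes and 8 further classes. A further 7366 nuclei were in clusters left unnamed, on average 12.25% of LPA and 13.25% of vehicle nuclei. These clusters had low UMI counts, markers of 2 classes or leading genes of another class. Their nuclei entered no class, but shares are given of all nuclei that passed the filters. The choroid plexus class carried all 10 of its markers, Ttr and Folr1 among them. It was named from these markers, so this is no separate check of the class. Choroid plexus nuclei made up 1.72% ± 0.109 of LPA and 1.63% ± 0.659 of vehicle nuclei (mean ± SD, n = 3), a difference of 0.0916 percentage points (two-sided exact permutation test, p = 0.9). Mature ependymal nuclei made up 1.96% ± 0.375 and 1.34% ± 0.878 (p = 0.4, same exact test). The smallest p that this exact permutation test can give with 3 libraries a group is p = 0.1. Meningeal cells made up 4.25% ± 0.698 of LPA and 9.45% ± 0.581 of vehicle nuclei, and astrocytes 20.4% ± 1.68 and 15.8% ± 1.15 (p = 0.1 for each, same exact test). The meningeal class depended on the clustering. When 1 more gene was let into the variable genes, an alternative chosen after seeing the data, 97.4% of nuclei kept their class, but a cluster of 1324 of the 4094 meningeal nuclei lost its name, nearly all of it within a cluster of 2198 nuclei that was left unnamed for carrying markers of 2 classes. The meningeal shares were then 2.84% ± 0.45 and 6.44% ± 0.409 (p = 0.1, same exact test).

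Levels are given as UMIs of a gene per 1000000 UMIs of a cell type in a library (CPM). A level was set against that of the same gene in other cell types only, since CPM is not per length and genes cannot be ranked against each other by it. The cell types were formed from the same nuclei, so differences between them are described without a test. RNA set free by broken cells can be counted in any nucleus. The 10 choroid plexus markers, summed, reached 42.9 to 758 CPM in the other 9 tested classes against 20291 to 25064 CPM in choroid plexus nuclei.

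Aqp1, the water channel of the ventricle side of the choroid plexus, was at 36.1 CPM in choroid plexus nuclei (25.9 to 56.5 over 6 libraries). The next class, mature ependymal cells, was at 3.53 CPM (0 to 6.27), below every choroid plexus value. Choroid plexus nuclei were 1.63% to 1.72% of nuclei in the 2 group means but held 52.2% of all Aqp1 UMIs. The gene was thinly counted, with 166 UMIs over all choroid plexus nuclei.

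Aqp4, the water channel of astrocyte end feet, had a different order. It stood at 344 CPM in astrocytes (315 to 382), which held 63.0% of its UMIs, and at 181 CPM in mature ependymal cells (161 to 213). These ranges did not overlap each other or that of microglia and macrophages, the next class, at 59.8 CPM (54.1 to 67.5). In choroid plexus nuclei it was at 25.9 CPM (14.4 to 35.5), in the range of endothelial cells, where it was at 38.9 CPM (25.4 to 56.4). The median of 10 astrocyte markers was 18.7% of their astrocyte level in microglia and macrophages. It was 9.01% in choroid plexus nuclei and 11.95% in endothelial cells. The part of RNA set free by astrocytes in the Aqp4 of these classes was not tested.

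Slc12a2 encodes NKCC1, which carries sodium, potassium and chloride together. It was not highest in the choroid plexus: mural cells of vessels stood at 729 CPM (666 to 868), above choroid plexus nuclei at 585 CPM (549 to 626) in every library. Oligodendrocytes were at 581 CPM (538 to 617), which overlapped the choroid plexus, and held 46.8% of all Slc12a2 UMIs against 4.35% in choroid plexus nuclei. Mature ependymal cells at 73.7 CPM and astrocytes at 60.2 CPM were the lowest classes and overlapped.

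Slc4a5, an electrogenic sodium bicarbonate cotransporter of the ventricle side of the choroid plexus, was the member most restricted to that epithelium by its share of UMIs. Choroid plexus nuclei stood at 448 CPM (391 to 506) and held 80.8% of its UMIs. Mature ependymal cells followed at 7.58 CPM (0 to 14.2), and every other class was at or below 4.47 CPM. In nuclei thinned to 1000 UMIs, 35.1% of LPA and 40.2% of vehicle choroid plexus nuclei had a Slc4a5 UMI (86.9% and 81.1% before thinning, at medians of 4801 and 3968 UMIs). In astrocytes, which served as background, the thinned shares were 0.204% and 0.0819% (0.610% and 0.325% before thinning, at medians of 3344 and 2797 UMIs). Nuclei with under 1000 UMIs were left out of the thinned shares, 1 and 6 in choroid plexus and 24 and 43 in astrocytes.

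Slc4a10 encodes a sodium-coupled bicarbonate transporter of the blood side of the choroid plexus. It was at 2336 CPM in choroid plexus nuclei (2285 to 2454) and at 1569 CPM in meningeal cells (1415 to 1813), followed by neurons at 261 CPM (240 to 271), with no overlap between these 3 classes. The meningeal level came from 1 cluster of that class, led by Slc47a1, Slc47a2 and Slc26a7, at 4014 CPM (3735 to 4620), while the other meningeal clusters were at 48.4 and 38.9 CPM. This is the cluster that lost its name in the alternative clustering, where the meningeal class was at 45.3 CPM (32.8 to 54.5). Because the classes differ in size, neurons held 31.3% of its UMIs, meningeal cells 28.2% and choroid plexus nuclei 15.4%. The remaining classes ranged from 157 CPM in oligodendrocyte precursors to 22.3 CPM in the LPA libraries of cells forming cilia.

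Kcnj13, an inwardly rectifying potassium channel of the ventricle side of the choroid plexus, was at 184 CPM there (146 to 244) and at 25 CPM in meningeal cells (16.9 to 40.1). All other classes were at or below 6.82 CPM. Clic6, a chloride intracellular channel protein, was at 459 CPM in choroid plexus nuclei (437 to 506) and at 33.2 CPM in mature ependymal cells (14.6 to 65.5), where its range overlapped that of neurons at 16.7 CPM (12.7 to 18.7).

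Stk39 encodes SPAK, the kinase that phosphorylates NKCC1 under the control of WNK kinases. It was at 3293 CPM in choroid plexus nuclei (2985 to 3580), at 1077 CPM in meningeal cells (979 to 1207), at 884 CPM in mural cells (803 to 971) and at 426 CPM in oligodendrocytes (393 to 448), each range above the next. The same meningeal cluster was at 1992 CPM, and without it, in the alternative clustering, the class was at 514 CPM (440 to 647). The 3 classes with most Slc12a2, the target of this kinase, were thus among the 4 with most Stk39.

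**Figure D1:**
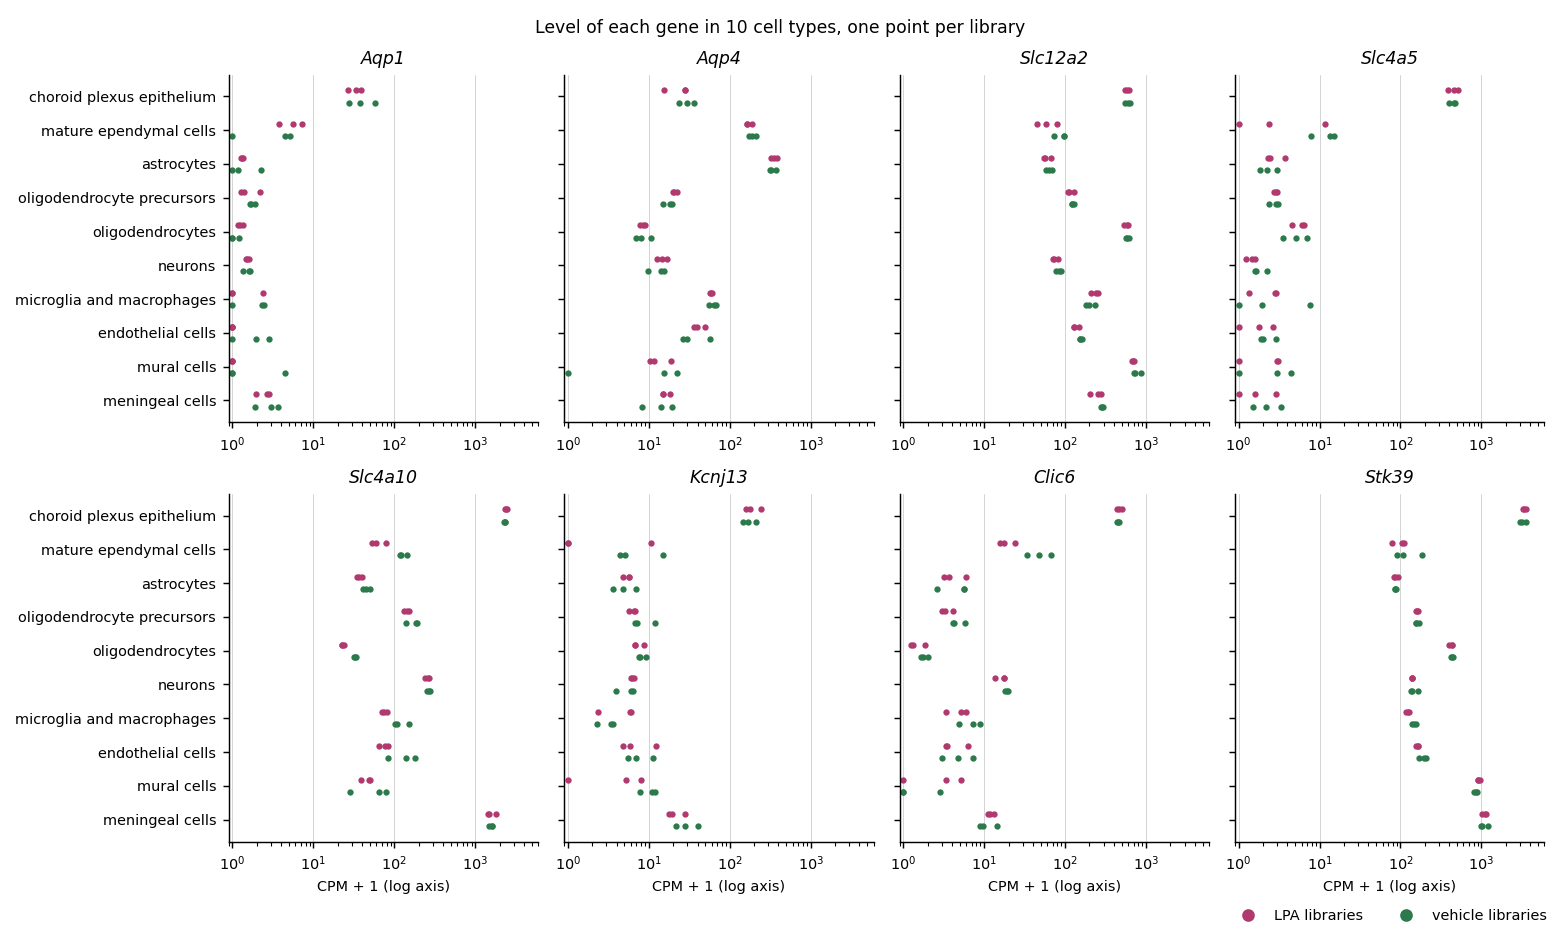
CPM + 1 on a log axis of each of the 8 genes in 10 cell types, with 1 point per library, LPA above vehicle in each row. Aqp1, Slc4a5, Kcnj13 and Clic6 peak in the choroid plexus, Aqp4 peaks in astrocytes at 344 CPM, Slc12a2 in mural cells at 729 CPM, and Slc4a10 and Stk39 have meningeal cells as their second highest class at 1569 and 1077 CPM.

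On the genome (GRCm38, the positions of GENCODE M21) the members lie apart. Aqp1 is at chr6:55336432-55348555 and Slc4a5 at chr6:83219828-83304945, both on the plus strand. Slc4a10 is at chr2:62046462-62326730 on the plus strand and Stk39 at chr2:68210445-68472268 on the minus strand. Aqp4 is at chr18:15389496-15410982 on the minus strand and Slc12a2 at chr18:57878678-57946821 on the plus strand. Clic6, at chr16:92485736-92541243 on the plus strand, overlaps 2410124H12Rik on the same strand, so that its counts are uncertain by what the pair shares. Kcnj13, at chr1:87386363-87394729 on the minus strand, lies within Gigyf2, which runs on the plus strand.

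Sequence before a start site was at hand in RefSeq (GRCm38.p6) for 5 of the 8 members: Aqp1, Slc4a5, Slc4a10, Kcnj13 and Stk39. The 250 bases before each start were searched on both strands for the TATA box letters TATAAA, which 12.4% of the 32851 windows of all genes held, and for TAATCC, the core bound by OTX2, a transcription factor of the choroid plexus, which 6.25% held. TATAAA was in the windows of Kcnj13, Slc4a5 and the first start of Slc4a10, and TAATCC in none of the 6 windows. Of these, 3 windows are printed, 5′ to 3′, with any match in capitals. That of Kcnj13, the potassium channel, has its match 29 bases before the start. The pair from Slc4a10, the transporter most of the LPA results concern, lies before its 2 listed starts, which are 101363 bases apart.

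Kcnj13, chr1:87394730-87394979, minus strand: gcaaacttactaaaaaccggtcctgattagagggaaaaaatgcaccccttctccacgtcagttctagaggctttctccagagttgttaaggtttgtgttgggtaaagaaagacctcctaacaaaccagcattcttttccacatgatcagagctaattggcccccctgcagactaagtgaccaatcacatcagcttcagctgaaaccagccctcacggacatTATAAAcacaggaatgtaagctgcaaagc
Slc4a10, first start, chr2:62046265-62046514, plus strand: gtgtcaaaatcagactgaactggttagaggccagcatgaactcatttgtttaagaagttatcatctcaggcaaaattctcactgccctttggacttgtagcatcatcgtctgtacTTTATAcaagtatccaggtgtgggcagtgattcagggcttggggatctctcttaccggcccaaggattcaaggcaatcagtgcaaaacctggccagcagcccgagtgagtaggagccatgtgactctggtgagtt
Slc4a10, second start, chr2:62147628-62147877, plus strand: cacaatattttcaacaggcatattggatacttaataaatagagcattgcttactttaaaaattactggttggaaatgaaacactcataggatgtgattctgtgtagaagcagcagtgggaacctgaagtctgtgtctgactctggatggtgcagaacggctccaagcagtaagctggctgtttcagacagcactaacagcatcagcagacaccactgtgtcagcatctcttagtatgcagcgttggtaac

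The match before the first Slc4a10 start reads on the opposite strand and lies 135 bases before it. The deposited counts are given per gene, without the positions of the reads, so the levels above are sums over both starts.

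The first comparison asked whether the fluid-secreting epithelium had changed its transporters 8 days after LPA. In choroid plexus nuclei none of the 8 members passed the test, where a gene was called at an adjusted p under 0.05 and a log2 difference of at least 0.25 (edgeR quasi-likelihood test, Benjamini-Hochberg over all 10027 genes tested). None had an unadjusted p under 0.05 either, and 0.0499% of the genes tested there were called. The members' log2 differences, LPA minus vehicle, ran from -0.34 to 0.21 with a median of 0.04, against 0.00 over all genes.

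Slc4a10 stood at 2298, 2454 and 2365 CPM in the LPA libraries and at 2309, 2306 and 2285 CPM in the vehicle libraries. The groups overlapped, and the log2 difference was 0.06 ± 0.07 (SE), with a 95% interval of -0.10 to 0.22. Stk39 stood at 3312, 3509 and 3246 CPM after LPA and at 3580, 3127 and 2985 CPM after vehicle (log2 difference 0.07, interval -0.10 to 0.24). Slc12a2, the substrate of this kinase, was at 549, 573 and 612 CPM against 597, 554 and 626 CPM (-0.02, interval -0.23 to 0.18). For these abundant genes the interval left out a change of 0.25 on the log2 scale in both directions.

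Slc4a5 was at 456, 506 and 391 CPM after LPA and at 473, 398 and 463 CPM after vehicle (log2 difference 0.03, interval -0.21 to 0.26). Clic6 was at 464, 506 and 437 CPM against 443, 445 and 460 CPM (0.08, interval -0.13 to 0.28). The potassium channel Kcnj13 was at 158, 180 and 244 CPM against 146, 208 and 165 CPM (0.21, interval -0.14 to 0.56). All of these groups overlapped.

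The water channels were measured with less precision. Aqp1 was at 25.9, 32.3 and 38.2 CPM in LPA and at 56.5, 37.1 and 26.7 CPM in vehicle choroid plexus nuclei, with 1 vehicle library above all others. Its log2 difference was -0.32 ± 0.28, with an interval of -0.90 to 0.27 that holds a fall by more than 0.25 as well as no difference. Aqp4 was at 14.4, 26.8 and 27.1 CPM against 28.8, 22.7 and 35.5 CPM (-0.34, interval -0.96 to 0.28). The part of RNA set free by astrocytes in this low level was not tested.

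Summed meningeal markers in choroid plexus nuclei were at 318 to 539 CPM in LPA and at 561 to 660 CPM in vehicle libraries, lower for 9 of 10 markers. Slc4a10 and Stk39 are also meningeal genes, and the part of this difference in their values was not tested.

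**Figure D2:**
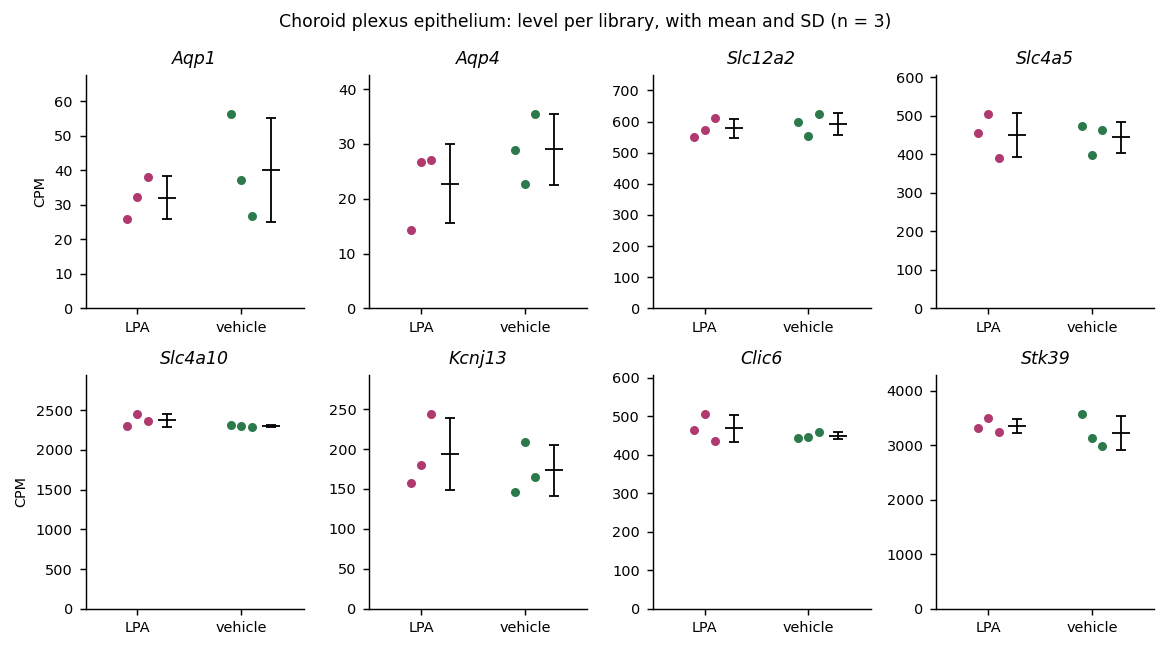
CPM of the 8 genes in choroid plexus epithelium, with 1 point per library on a linear axis from 0 and the group mean with its SD (n = 3) beside the points. The LPA and vehicle libraries overlap for all 8 genes, from Stk39 at 2985 to 3580 CPM to Aqp4 at 14.4 to 35.5 CPM.

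In mature ependymal cells 5 members could be tested, and Slc4a10 and Clic6 fell, where 2.01% of the 8340 genes tested were called. With the settings used throughout, all 5 had a log2 difference below 0, with a median of -0.52 against 0.00 over all genes. An unadjusted p under 0.05 (edgeR) was found for 4 of 5 and for 12.1% of all genes tested. Stk39 did not keep its direction over the alternatives. Both calls ended when 9 nuclei left the class in another clustering. Aqp1, Slc4a5 and Kcnj13 were too low to test there, with 10, 21 and 17 UMIs in all.

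Slc4a10 was at 57.8, 52.2 and 77.9 CPM in LPA and at 119, 115 and 141 CPM in vehicle ependymal cells, and every LPA library lay below every vehicle library. The log2 difference was -0.97 ± 0.21 (SE, interval -1.38 to -0.55, edgeR adjusted p = 0.00612). Clic6 was at 23.4, 14.6 and 16.8 CPM against 46.1, 32.9 and 65.5 CPM, again without overlap (-1.35 ± 0.33, interval -2.03 to -0.67, edgeR adjusted p = 0.0228). The call for Slc4a10 held when any 1 library was left out, but not without the mitochondrial filter (-0.29, edgeR adjusted p = 0.617) or with Scrublet doublet calls left out (-0.68, edgeR adjusted p = 0.208). The call for Clic6 was lost without LPA replicate 2, LPA replicate 3, vehicle replicate 1 or vehicle replicate 3 in turn (edgeR adjusted p = 0.0855 to 0.162).

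Slc12a2 was at 56.4, 79.4 and 44.3 CPM against 70.9, 94.7 and 96.5 CPM, with overlap (-0.52, interval -0.998 to -0.032, edgeR adjusted p = 0.364). Stk39 was at 110, 77.3 and 104 CPM against 183, 90.6 and 107 CPM, and vehicle replicate 1 alone lay above the other libraries by a wide gap (-0.47, interval -0.89 to -0.04, edgeR adjusted p = 0.346). Aqp4, the water channel of these cells, was at 162, 188 and 161 CPM against 213, 189 and 172 CPM (-0.20, interval -0.51 to 0.11). Over 20 alternatives the log2 difference ran from -0.706 to -0.146 for Slc12a2 and from -0.625 to 0.256 for Stk39. For Aqp4 it ran from -0.275 to -0.024. None of these genes was called in any alternative.

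These values rest on few molecules, 25 to 67 UMIs of Slc4a10 and 7 to 26 of Clic6 per library. Slc4a10 was found in 17.0% of LPA and 16.0% of vehicle ependymal nuclei (thinned, 5.12% and 7.05%, at medians of 3341 and 2801 UMIs before thinning, with 5 and 6 shallower nuclei left out), while Ttr, a choroid plexus gene, was found in 12.1% and 11.2% (thinned, 3.74% and 3.79%). Nuclei with at least 2 Slc4a10 UMIs held 50%, 16% and 37.3% of the gene's UMIs in the LPA libraries and 71.6%, 75% and 68.3% in the vehicle libraries. A single nucleus held 19 of the 28 UMIs of vehicle replicate 2, and another held 19 of the 41 of vehicle replicate 3. Without the nuclei of 2 or more UMIs, Slc4a10 was at 29.9, 44.7 and 50.4 CPM in LPA and at 37.3, 30.2 and 47.1 CPM in vehicle libraries, and the groups overlapped. These nuclei were chosen by the count that is compared, so the values are a description. Clic6, treated in this way, was at 15.5, 14.6 and 9.32 CPM against 29.0, 32.9 and 36.0 CPM, and did not overlap.

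Markers of the choroid plexus and of meningeal cells moved with these 2 genes. Summed astrocyte markers were higher after LPA (1640 to 1738 against 1452 to 1577 CPM), though 7 of 10 markers were lower. Summed neuronal markers overlapped, at 1788 to 1903 CPM in LPA and 1581 to 2185 CPM in vehicle libraries. Summed choroid plexus markers were at 336 to 453 CPM in LPA and at 725 to 758 CPM in vehicle ependymal cells, lower after LPA for 8 of 10. Summed meningeal markers were at 70.2 to 79.5 CPM against 111 to 131 CPM, also lower for 8 of 10. In ependymal cells Slc4a10 was at 4.02% of its choroid plexus level and Clic6 at 7.24%. Of the 10 choroid plexus markers, 5 and 4 were at or above these shares. In every other class tested the summed choroid plexus markers overlapped between the groups. In astrocytes they were at 91.8 to 116 CPM in LPA and at 77.5 to 132 CPM in vehicle libraries. The part of RNA set free by the choroid plexus in the ependymal levels of these genes was not tested. When nuclei with at least 2 of 8 choroid plexus markers were left out, which took 3.85% to 10.1% of nuclei per library, Slc4a10 was at 41.8, 57.3 and 65.1 CPM against 78.3, 39.2 and 74.1 CPM. The groups then overlapped (log2 difference -0.31, edgeR adjusted p = 0.696). Clic6 was at 19.4, 13.8 and 13 CPM against 26.7, 30.5 and 51.9 CPM without these nuclei, which did not overlap but was no longer called (-1.13, edgeR adjusted p = 0.162). Without nuclei carrying a meningeal marker, the log2 difference of Slc4a10 was -0.15 (edgeR adjusted p = 0.925) and that of Clic6 -0.94 (edgeR adjusted p = 0.387).

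Both calls ended with a small change in the nuclei of the class, though the Clic6 difference moved less than that of Slc4a10. In the alternative clustering with 1 more variable gene, 879 of the 888 ependymal nuclei kept their class, and the 9 that did not had held 87 of the 254 Slc4a10 UMIs and 19 of the 88 Clic6 UMIs. Slc4a10 was then at 41.9, 52.2 and 61.4 CPM against 75.4, 38.3 and 77.1 CPM, with overlap (-0.37, edgeR adjusted p = 0.633). Clic6 was at 19.5, 14.6 and 12.3 CPM against 31.3, 29.8 and 56.1 CPM, without overlap and not called (-1.26, edgeR adjusted p = 0.0765).

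The mix of ependymal clusters differed as well. One cluster, led by Ptpn20, Dnah12 and Wdr49, held 67, 59 and 79 nuclei of the LPA libraries and 1, 1 and 2 of the vehicle libraries. Slc4a10 was low in it, at 25.2, 50.4 and 47.4 CPM in the LPA libraries. Without that cluster Slc4a10 was at 83.1, 53.7 and 106 CPM against 119, 118 and 141 CPM, with no overlap and a smaller difference (-0.60, edgeR adjusted p = 0.447), and Clic6 overlapped at 39.1, 11.5 and 32.5 CPM against 46.3, 33.9 and 66.7 CPM (-0.73, edgeR adjusted p = 0.624).

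**Figure D3:**
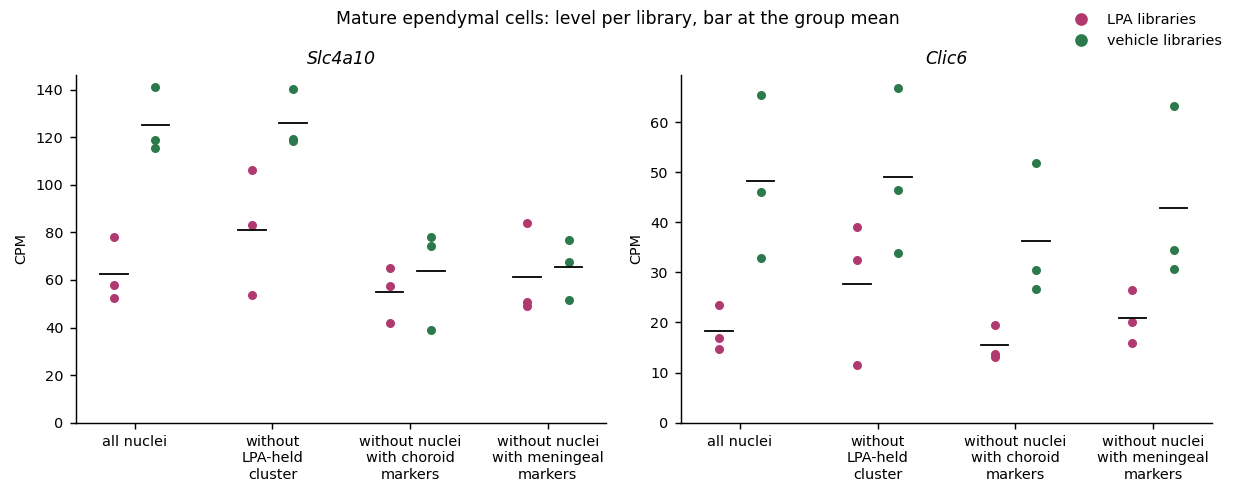
CPM of Slc4a10 and Clic6 in mature ependymal cells per library on a linear axis from 0, with a bar at each group mean, for all nuclei and after 3 ways of leaving nuclei out. With all nuclei the LPA libraries lie below the vehicle libraries for both genes, and without nuclei carrying choroid plexus markers Slc4a10 spans 41.8 to 65.1 CPM after LPA and 39.2 to 78.3 CPM after vehicle.

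The LPA difference was also compared between the 2 epithelia. The LPA difference in mature ependymal cells minus that in choroid plexus was -1.04 ± 0.22 on the log2 scale for Slc4a10 (edgeR interaction term, adjusted p = 0.00827) and -1.43 ± 0.34 for Clic6 (edgeR adjusted p = 0.0247), and 0.35% of the 10859 genes tested were called. Without ependymal nuclei carrying choroid plexus markers these terms were -0.33 (edgeR adjusted p = 0.826) and -1.17 (edgeR adjusted p = 0.242), and with 1 more variable gene -0.41 (edgeR adjusted p = 0.761) and -1.31 (edgeR adjusted p = 0.13). The Slc4a10 term also lost its call without LPA replicate 1, LPA replicate 2, vehicle replicate 1 or vehicle replicate 3, and the Clic6 term without LPA replicate 2, LPA replicate 3, vehicle replicate 1 or vehicle replicate 3. No member was called for a difference between astrocytes and mature ependymal cells (1.65% of genes called) or between astrocytes and choroid plexus (0.624% called). For Slc4a10 the term of astrocytes minus mature ependymal cells was 0.69, with an interval of 0.22 to 1.15 (edgeR adjusted p = 0.135).

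The second comparison concerned astrocytes, where 6 members were tested and none was called, against 8.17% of 14608 genes. Aqp4 was at 320, 349 and 382 CPM in LPA and at 371, 324 and 315 CPM in vehicle astrocytes, with overlap (log2 difference 0.08, interval -0.09 to 0.24). Slc4a10, low in these cells, was at 38.7, 33.4 and 35.6 CPM against 49.2, 39.8 and 43.3 CPM, with no overlap (-0.27, interval -0.48 to -0.06, edgeR adjusted p = 0.116). Slc12a2 was at 54.0 to 65.5 CPM against 56.3 to 67.5 CPM and Stk39 at 81.6 to 92.7 CPM against 84.2 to 86.1 CPM. Kcnj13 and Clic6 were at or below 5.93 CPM in every library.

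Aqp4 varied more between astrocyte clusters than between groups. The cluster led by Grin2c and Hapln1 stood at 223 to 291 CPM, the cluster led by Agt and Slc6a11 at 313 to 399 CPM and the cluster led by Myoc and Gfap, a filament protein of reactive astrocytes, at 465 to 882 CPM, with no overlap between them. Within each cluster the LPA and vehicle libraries overlapped, with log2 differences of -0.10, -0.16 and -0.03. The Myoc and Gfap cluster made up 23.5% to 26.0% of LPA astrocytes and 11% to 12.2% of vehicle astrocytes. In that cluster Slc4a10 fell, from 105, 51.5 and 61.4 CPM in vehicle to 38.9, 35.4 and 43.1 CPM in LPA libraries (-0.71 ± 0.23, edgeR adjusted p = 0.0476), where 9.54% of genes were called. It kept this call in only 3 of 12 alternatives, and without vehicle replicate 1 the difference was -0.42 (edgeR adjusted p = 0.352). No member was called in the other clusters, where 2.53% and 0.404% of genes were called.

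Counted over all nuclei, Aqp4 rose and Slc4a10 fell, where 5.62% of 20207 genes were called. In such sums a change in the number of cells of a type and a change in RNA per cell cannot be told apart. Aqp4 was at 76.3, 83.3 and 74.8 CPM in LPA and at 59.8, 64.9 and 55.2 CPM in vehicle libraries (0.39 ± 0.07, edgeR adjusted p = 0.0153), without overlap. When each library was given the same mix of clusters, the log2 difference of Aqp4 was -0.02, and without astrocyte nuclei it was 0.20 (edgeR adjusted p = 0.191). Slc4a10 was at 209, 223 and 243 CPM against 289, 289 and 316 CPM (-0.40 ± 0.07, edgeR adjusted p = 0.0135), and at -0.06 with the same mix and -0.23 without meningeal nuclei (edgeR adjusted p = 0.63 and 0.142). The same mix was drawn from the named classes only, so unnamed nuclei were not in it. Leaving out astrocyte or meningeal nuclei removed the named class, and the unnamed clusters stayed in. The unnamed cluster led by Slc6a13 and Slc6a12 had meningeal cells as its second class by markers. It held 84, 94 and 71 nuclei of the LPA and 159, 303 and 272 of the vehicle libraries. The call for Aqp4 was lost without LPA replicate 2 and that for Slc4a10 without LPA replicate 1, LPA replicate 2 or vehicle replicate 3.

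Outside the cells that border the fluid, Slc4a10 was the only member called in a single cell type. It fell in oligodendrocytes, where 2.47% of 14214 genes were called, from 30.3, 31.6 and 32.5 CPM in vehicle to 21.4, 21.6 and 23.1 CPM in LPA libraries (-0.50 ± 0.09, interval -0.69 to -0.31, edgeR adjusted p = 0.00531). The call held when any 1 library was left out, and ended with finer clusters (Leiden resolution 2, edgeR adjusted p = 0.0546) and with the same mix of clusters (edgeR adjusted p = 0.0993). Over all 18 alternatives the log2 difference ran from -0.54 to -0.42. Slc4a10 also fell in microglia and macrophages, where 4.48% of 13163 genes were called, from 106, 101 and 149 CPM to 79.4, 74.3 and 69.5 CPM (-0.65 ± 0.14, edgeR adjusted p = 0.0129), and that call was lost without LPA replicate 2, LPA replicate 3 or vehicle replicate 3 and with Scrublet calls left out (-0.38, edgeR adjusted p = 0.329). It also ended with finer clusters (edgeR adjusted p = 0.0928) and with the same mix (edgeR adjusted p = 0.107). In both types no LPA library reached the lowest vehicle library.

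The other cell types gave values but no call. In endothelial cells Slc4a10 was at 62.8, 76.0 and 83.5 CPM against 83.6, 139 and 179 CPM (-0.86, interval -1.34 to -0.38, edgeR adjusted p = 0.397). There 0% of 11294 genes were called by edgeR, and 733 (6.49%) had an unadjusted p under 0.05. Slc4a10 was called in endothelial cells with no filter on low counts (-0.85, edgeR adjusted p = 2.98e-05) with finer clusters (-1.46, edgeR adjusted p = 0.0359) and without vehicle replicate 1 (-1.11, edgeR adjusted p = 0.0218). In oligodendrocyte precursors (0.456% of genes called) it was at 150, 129 and 144 CPM against 185, 191 and 140 CPM (-0.27, edgeR adjusted p = 0.322), with vehicle replicate 3 among the LPA libraries. In mural cells (0.168% called) the difference was -0.45 with an interval of -1.03 to 0.12.

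In the 2 large classes where Slc4a10 is high outside the choroid plexus it was level between the groups. Meningeal cells (1.07% of genes called) were at 1415, 1492 and 1813 CPM after LPA and at 1468, 1627 and 1598 CPM after vehicle (0.02, interval -0.17 to 0.20). Without the cluster that lost its name in the alternative clustering the difference was -0.06 (edgeR adjusted p = 0.967). Neurons (0.0947% called) were at 260, 240 and 269 CPM against 254, 268 and 271 CPM (-0.03, interval -0.17 to 0.11). NeuN-positive nuclei had been sorted away, so that these neurons are those that passed the gate.

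The classes where Slc4a10 was lower after LPA also held less meningeal RNA. The sum of 10 meningeal markers in every LPA library lay below that in every vehicle library in all 9 classes other than meningeal cells, with 8 to 10 of the markers lower. In oligodendrocytes it was at 19.4 to 32.0 CPM against 43.9 to 55.8 CPM, and in microglia and macrophages at 81.4 to 102 CPM against 115 to 279 CPM. Without nuclei that carried a meningeal marker Slc4a10 was at 22.6, 20.9 and 22.7 CPM against 30.6, 32.3 and 31.2 CPM in oligodendrocytes (-0.49, edgeR adjusted p = 0.00862). In microglia and macrophages it was then at 87.6, 71.3 and 66.1 CPM against 109, 104 and 150 CPM (-0.67, edgeR adjusted p = 0.0296). With all nuclei the log2 differences were -0.50 and -0.65. RNA set free by other cells stays in nuclei without a counted marker, so its part was not tested. The 10 neuronal markers, summed, were also lower in microglia and macrophages, at 2766 to 3385 CPM in LPA and 3487 to 3970 CPM in vehicle libraries. In oligodendrocytes they overlapped, at 690 to 798 CPM and 686 to 804 CPM.

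**Figure D4:**
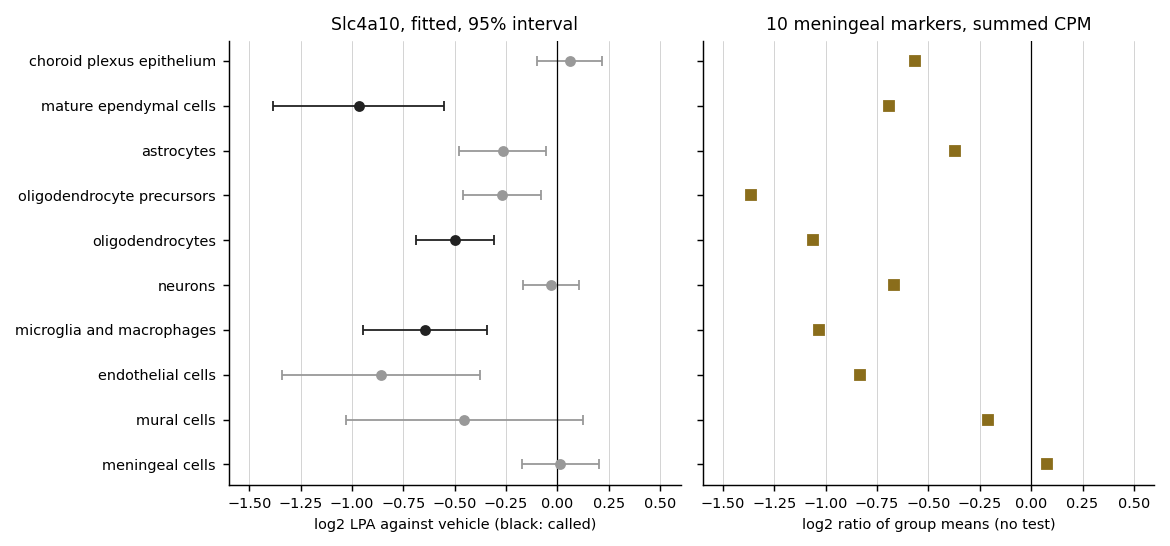
Left, log2 difference of Slc4a10, LPA against vehicle, in 10 cell types, with its 95% interval and black points where it was called. Right, log2 ratio of the group means of 10 summed meningeal markers in the same cell types, with no test. Slc4a10 is near 0 in choroid plexus, neurons and meningeal cells (0.06, -0.03 and 0.02), and the marker ratio is below 0 in all 9 classes other than meningeal cells.

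The remaining members gave no call in these types with the settings used throughout. Slc12a2 in mural cells, its highest class, was at 693, 708 and 666 CPM in LPA and at 868, 739 and 701 CPM in vehicle libraries, with overlap (-0.17, interval -0.38 to 0.05). In oligodendrocytes it was at 538, 585 and 604 CPM against 617, 563 and 580 CPM (-0.01, interval -0.14 to 0.13). Stk39 in mural cells was at 971, 900 and 916 CPM against 848, 869 and 803 CPM, each LPA library above each vehicle library (0.13, interval -0.08 to 0.33, edgeR adjusted p = 0.832). Stk39 in microglia and macrophages was at 127, 121 and 116 CPM against 144, 138 and 154 CPM, each LPA library below each vehicle library (-0.25, interval -0.48 to -0.03, edgeR adjusted p = 0.219). It was called there with finer clusters (-1.41, edgeR adjusted p = 0.000139) and without the mitochondrial filter (-0.34, edgeR adjusted p = 0.0494). Kcnj13 in meningeal cells was at 27.1, 16.9 and 18.3 CPM against 20.5, 40.1 and 27.3 CPM (-0.58, interval -1.10 to -0.06, edgeR adjusted p = 0.408). Clic6 in neurons was at 16.8, 16.4 and 12.7 CPM against 18.7, 18.4 and 17.0 CPM (-0.23, edgeR adjusted p = 0.73). In cells forming cilia, 79 nuclei of LPA and 6 of vehicle libraries, the vehicle side was too small for any test.

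The machinery holds further genes, of which a list of 44 was read in the 3 cell types that face the fluid or its barriers: subunits of the sodium pump, cation-chloride cotransporters, bicarbonate and proton transporters, carbonic anhydrases, potassium and chloride channels, WNK kinases with their partners, and aquaporins with the proteins that anchor them. In choroid plexus nuclei 37 could be tested and none was called by edgeR. An unadjusted p under 0.05 was found for 2, a share no higher than the 6.01% of all genes tested, and they are named here only after their values were seen. They were Kcnj10, a potassium channel best known from glia, with a log2 difference of -0.92, and Dmd, dystrophin, with 0.33. In mature ependymal cells 27 were tested, none was called by edgeR and 3 had an unadjusted p under 0.05, close to the 12.1% of all genes, also named after their values were seen: Atp1b3, a pump subunit (0.57), and the anchors Dtna (0.28) and Dmd (-0.19). The medians of the list were 0.02 and 0.03 in the 2 cell types.

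In astrocytes 6 of the 40 tested were called, 5 lower and 1 higher, a share to be read against 8.17% of all genes. Atp1b2, a beta subunit of the sodium pump best known from astrocytes, was at 277, 279 and 269 CPM in LPA and at 474, 352 and 340 CPM in vehicle libraries (-0.48 ± 0.09, edgeR adjusted p = 0.0024). No LPA library reached the lowest vehicle library, and vehicle replicate 1 was the highest.

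Lrrc8a, the core subunit of the volume-regulated anion channel, fell from 66.1, 57.2 and 63.1 CPM to 38.2, 46.0 and 45.6 CPM (-0.50 ± 0.09, edgeR adjusted p = 0.00148). Its partner Lrrc8c, named after its values were seen, fell by 0.27 on the log2 scale (edgeR adjusted p = 0.03). Wnk2, a kinase upstream of Stk39, was at 378, 325 and 348 CPM against 435, 414 and 468 CPM (-0.31 ± 0.07, edgeR adjusted p = 0.0109). Car14, a membrane-bound carbonic anhydrase, was at 2.88, 3.92 and 2.68 CPM against 6.00, 6.71 and 6.13 CPM (-0.97 ± 0.24, edgeR adjusted p = 0.016). For each of these genes no LPA library reached the lowest vehicle library.

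Sntb1, a syntrophin of the complex that anchors membrane proteins to dystrophin, rose from 85.8, 84.2 and 99.3 CPM to 119, 125 and 95.9 CPM, with overlap at 1 library of each group (0.35 ± 0.09, edgeR adjusted p = 0.0204). The median of the 40 genes was -0.01, the same as over all genes tested in astrocytes. Summed astrocyte markers were also lower after LPA, at 21415 to 22846 CPM against 23762 to 24110 CPM, for 8 of 10 markers, and their part in these calls was not tested. With the same mix of clusters in each library 3 of the 6 were called, Atp1b2, Lrrc8a and Wnk2. Atp1b2 and Lrrc8a were called in all 18 alternatives. Car14 lost its call without LPA replicate 1, LPA replicate 3 or vehicle replicate 2, and Wnk2 without LPA replicate 2, LPA replicate 3 or vehicle replicate 3. Sntb1 lost it without LPA replicate 1, LPA replicate 2 or vehicle replicate 2, and Lrrc8c without each of these 3 or vehicle replicate 3.

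**Figure D5:**
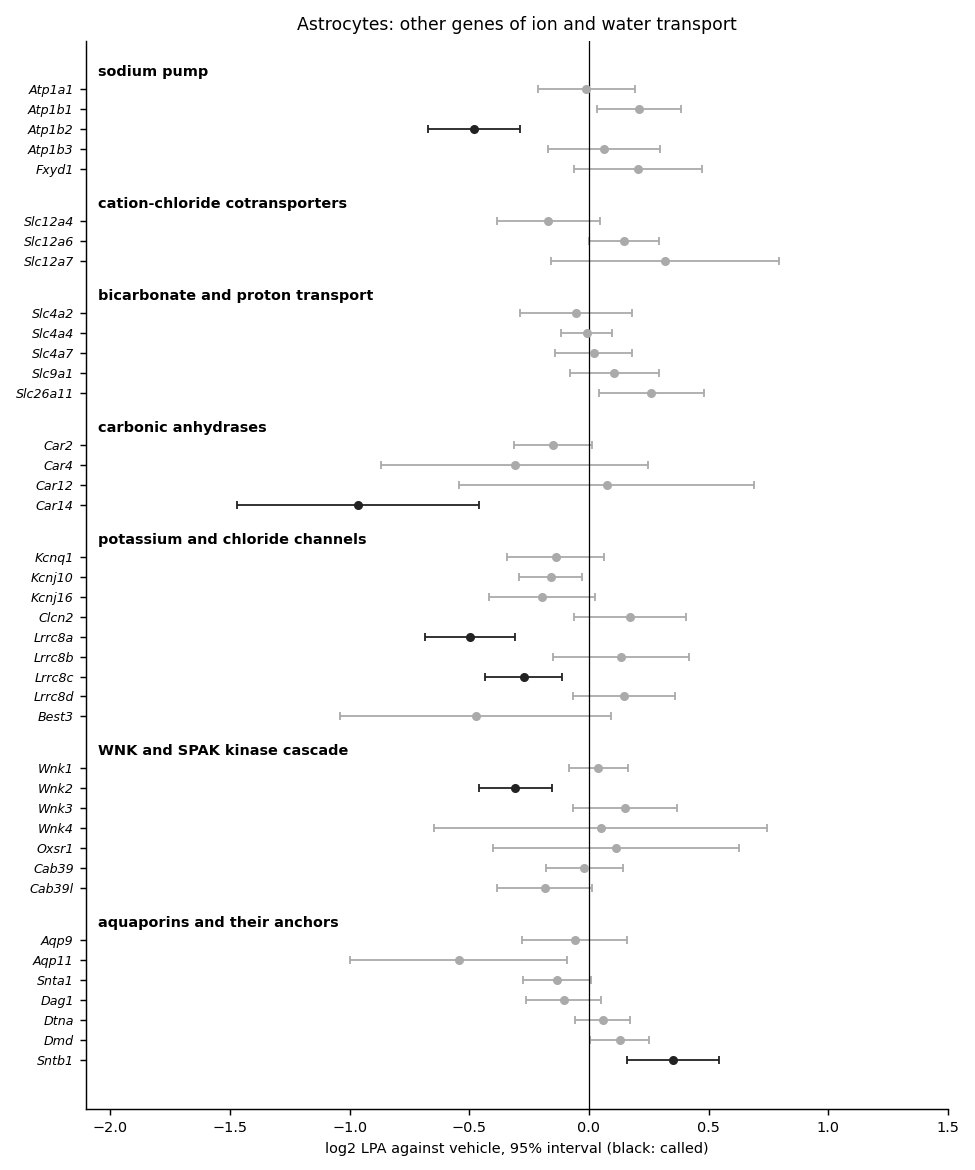
Log2 difference in astrocytes, LPA against vehicle, of the 40 further transport genes that could be tested, with 95% intervals, grouped by function, black where called. Of the 6 called genes, 5 lie below 0, from Car14 at -0.97 to Lrrc8c at -0.27, and Sntb1 lies above 0 at 0.35.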

How the data were processed

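The authors counted UMIs with Cell Ranger 4.0.0 against mm10 with introns included in the gene models (a pre-mRNA reference), and deposited filtered matrices of raw counts, 1 per library, from 10x 3′ v3 libraries that targeted 10000 cells each. The strand setting of the counting is not given in the sources used here. Nuclei with under 300 genes, over 1% mitochondrial UMIs, or UMIs beyond 1.5 interquartile ranges were removed, after the study's filters. Scanpy 1.11.5 was used for log normalization, 3000 variable genes, 40 principal components, 30 neighbors and Leiden clustering (resolution 1). Clusters led by markers of mature ependymal cells or cells forming cilia were then clustered again. This second step used 2000 variable genes, 20 components, 20 neighbors and resolution 0.5, also in the alternative at Leiden resolution 2. Then 11 classes were named from 10 markers each (5 for cells forming cilia). The limits that decide whether a cluster gets a name were chosen with the clusters already in view. No batch integration was applied. Doublets were left in, with Scrublet calls left out as an alternative. UMIs were summed per library and class and tested with edgeR 4.0.16 (quasi-likelihood, TMM, filterByExpr) in classes with at least 10 nuclei in every library. Every test was fitted over all genes that passed the filter. The fits were also run on simulated counts with known changes. CPM values use class totals without TMM. Sex was read from Xist for an alternative fit: the LPA libraries were 1 male and 2 female and the vehicle libraries 2 male and 1 female.

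The labels' replicate numbers tie no libraries together. Deviations from the group means of libraries with the same number correlated at 0.336, 0.596 and -0.184, so the numbers were not taken as pairs. Replicates of a group differed by more than sampling noise (chi-square per degree of freedom 12.5 to 25). The 8 genes, the marker lists and the lists of further genes were chosen with earlier results of these data known. A gene of the lists is not reported here and was left out of their counts and medians. Named genes beyond the 8 were the 5 of lowest adjusted p per direction among called genes of the further lists, and for each member the 2 genes most alike over cell types, and others were named after their values were seen, as stated beside them. No table of protein sequences was used.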

Additional observations from a re-analysis of the deposited data

Results flagged for a closer look

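By the edgeR interaction term, the LPA differences of Slc4a10 and Clic6 were unlike in the 2 epithelia. The difference in mature ependymal cells minus that in choroid plexus epithelium was -1.04 on the log2 scale for Slc4a10 (edgeR adjusted p = 0.00827). For Clic6 it was -1.43 (edgeR adjusted p = 0.0247). In ependymal cells the genes stood at 4.02% and 7.24% of their choroid plexus levels, and the median choroid plexus marker at 4.26%. The part of RNA set free by the choroid plexus in these levels was not tested. Both genes were lower after LPA in ependymal cells and overlapped between the groups in choroid plexus nuclei. Neither term was called once ependymal nuclei carrying choroid plexus markers were left out (-0.33 and -1.17) or 1 more gene was let into the variable genes (-0.41 and -1.31), and each kept its call in 5 of 13 alternatives. No group had 4 or more libraries, so no library was tested for standing apart.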

How the results depend on the processing

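No member was called in choroid plexus, astrocytes, oligodendrocyte precursors, neurons, mural or meningeal cells under any alternative run. The 2 calls in mature ependymal cells became 1 with DESeq2, with at least 10 UMIs in every library of a group, with a sex term and with Scrublet calls left out, and 0 without the mitochondrial filter, with the same cluster mix, without the cluster held by LPA libraries without nuclei carrying choroid plexus or meningeal markers and with 1 more variable gene. With no mitochondrial filter 1 further transport gene was called there, and with the same cluster mix 3 in astrocytes. The call in oligodendrocytes became 0 at Leiden resolution 2 and with the same mix. That in microglia and macrophages became 2 without the mitochondrial filter and 0 with Scrublet calls left out or with the same mix, and at resolution 2 the 1 call was Stk39 in place of Slc4a10. In endothelial cells 1 member was called with no filter or at resolution 2. Over all nuclei the 2 calls became 0 with the same mix (Aqp4 then at -0.020) and 1 without meningeal or without astrocyte nuclei. The call in an astrocyte cluster became 0 with DESeq2, no filter and a sex term. The 2 interaction calls became 0 without the mitochondrial filter, with Scrublet calls left out, with 1 more variable gene and without nuclei carrying choroid plexus markers. The share of mature ependymal nuclei differed by -0.00841 points without the mitochondrial filter. The cause of these changes was not tested.

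Leaving out 1 library at a time gave 1 to 2 calls in ependymal cells, 3 to 7 further genes in astrocytes, 0 to 1 in microglia and macrophages, endothelial cells and astrocyte clusters, 0 to 2 over all nuclei and in the interaction, and share differences of -0.264 to 0.385 points for choroid plexus and 0.283 to 1.12 points for ependymal nuclei. The replicate numbers were also tried as a block, although the pairing has no support in the labels. The block ended the call of Slc4a10 in the astrocyte cluster, leaving 0 (edgeR adjusted p = 0.0636), and changed no other count of calls, and 3 of 6 libraries correlated best with their own number.

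Of single values, 538 of 630 with a library left out and 907 of 1003 under other alternatives kept direction and call. Cells forming cilia were not fitted. Depth limits Aqp1 and Aqp4 in choroid plexus and Slc4a10 and Clic6 in ependymal cells. The alternatives that leave nuclei or a cluster out by name, and that with 1 more variable gene, were chosen after seeing the data.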

Other observations

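For each member the genes with the most similar levels over 10 cell types were sought among 14408 genes, by Pearson correlation of mean log2(CPM + 1). The 10 points share the same 6 libraries and differ in depth, so these values are a description. Slc4a5 was closest to the defensin genes Defb9 (0.980) and Defb11 (0.979), both highest in choroid plexus nuclei, and Aqp1 to Cldn2 (0.986), a claudin of tight junctions, and Igfn1 (0.985). Aqp4 was closest to Pla2g7 (0.993) and Phkg1 (0.989), both highest in astrocytes. Kcnj13 was closest to Cdh3 (0.980) and Gm44933 (0.975), and Clic6 to Actr6 (0.970) and Gm49527 (0.967). Slc4a10 was closest to Ppp1r37 (0.957) and Cox16 (0.934), the second of which is highest in meningeal cells. Slc12a2 was closest to Lrrfip2 (0.940) and Plcl1 (0.929), both highest in mural cells, and Stk39 to Zfp280d (0.923) and Cox6b2 (0.912). Among the members themselves, Aqp1 and Slc4a5 correlated at 0.938, Slc12a2 and Stk39 at 0.827, and Aqp4 and Slc12a2 at -0.644.

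Slc4a10 was split within the meningeal class, of which 1 cluster had a UMI of it in 98% of nuclei and the others in 10.7%. That cluster was not named in the alternative clustering with 1 more variable gene. After thinning to 1000 UMIs, 33.7% of LPA and 32.3% of vehicle meningeal nuclei had a UMI of it (39.8% and 38.6% before thinning, at medians of 3225 and 2646 UMIs). In choroid plexus nuclei the thinned shares were 85.5% and 87.0% (99.8% and 98.8% before, at medians of 4801 and 3968 UMIs), and in endothelial cells 5.11% and 7.14% (16.6% and 19.7% before, at 3210 and 2754 UMIs). Nuclei left out as shallower were 26 and 44, 1 and 6, and 6 and 8 in these 3 types.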
